A study of Homo sapiens with 6 samples.

Results

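The 10 genes described here encode the main heat shock proteins of the cytosol and of the mitochondrial matrix, here in RNA-seq libraries of the human pancreatic carcinoma line MIA PaCa-2. Their rows were taken by gene name and not by their values, but the genes were chosen with earlier results of these data known. The genes are HSP90AA1, HSP90AB1, HSPA8, HSPA1A, HSPA1B, HSPH1, DNAJB1, HSPB1, HSPD1 and HSPE1, and they fall in 9 of the 18268 rows of the deposited table. In 7 of those rows the gene stands alone. HSPA1A and HSPA1B share a row with C6orf48, and HSPE1 shares one with MOB4 and the HSPE1-MOB4 readthrough, so the values of these 2 joined rows belong to no single gene.

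The tested cells overexpressed LINC00901, a long noncoding RNA, and the control cells carried the empty pCDH vector, with 3 libraries in each group. Cells of both groups grew in DMEM with fetal bovine and horse serum. The labels do not say whether either group is a single clone or a pool, nor what makes 3 libraries of a group separate samples. The p-values then rest on the spread among libraries, which may be technical. The values are FPKM, fragments scaled to gene length and to the mapped fragments of a library, and the depth behind them is unknown. No row names LINC00901, so its level was not analysed here.

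Heat shock proteins are chaperones, which bind unfolded or newly made proteins and help them fold. HSP70 proteins take up short exposed stretches of a client in cycles of ATP hydrolysis that J-domain proteins start and nucleotide exchange factors end, and HSP90 proteins act later, on nearly folded clients such as kinases. Under proteotoxic stress the transcription factor HSF1 binds heat shock elements, which are alternating GAA and TTC units, and switches on the inducible members, while other members are made at all times. HSPD1 and HSPE1 form the chaperonin chamber of mitochondria, and their genes are transcribed in opposite directions from a shared intergenic region.

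Promoter windows from RefSeq (build GRCh38.p14, 250 bases before to 50 after each start) matched all 10 genes, with 16 windows in all. They were searched on both strands for a pair of heat shock units, GAANNTTC or TTCNNGAA, each of which is its own reverse complement, and for 3 alternating units in a row with NN between them, which contain overlapping pairs. A pair was found in 9 of the 16 windows and in at least 1 window of 8 of the 10 genes, against 13.5% of all 35116 windows and 16.2% of all 27305 genes. The form with 3 units was found for 4 of the 10 genes (HSP90AA1, HSP90AB1, HSPA8 and HSPD1), against 0.608% of all genes. The stretches upstream of the start that hold the pairs are printed because they are the sequence feature by which these genes are known, with every pair in capitals and coordinates on that build, which is not the build of the authors' alignment. A pair in another DNAJB1 window lies after its start and is counted but not printed. A match is a description of letters and not evidence of binding, and no pair was found in the windows of HSPH1 and HSPE1. The HSPE1 window begins at chr2:197500129, so it does not cover the pairs printed for HSPD1, which lie nearby.

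DNAJB1, chr19:14518417-14518494, minus strand: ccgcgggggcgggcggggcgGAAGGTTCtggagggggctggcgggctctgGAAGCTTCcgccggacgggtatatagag
HSPB1, chr7:76302471-76302518, plus strand: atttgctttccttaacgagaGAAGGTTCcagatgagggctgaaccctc
HSP90AB1, chr6:44247758-44247863, plus strand: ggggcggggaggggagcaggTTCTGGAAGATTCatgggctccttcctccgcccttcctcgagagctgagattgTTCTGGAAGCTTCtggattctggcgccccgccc
HSP90AA1, chr14:102087085-102087152, minus strand: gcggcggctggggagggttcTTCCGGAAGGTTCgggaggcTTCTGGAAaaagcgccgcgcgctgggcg
HSPD1, chr2:197500048-197500090, minus strand: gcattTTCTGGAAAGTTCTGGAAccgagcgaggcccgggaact
HSPA1A, chr6:31815417-31815464, plus strand: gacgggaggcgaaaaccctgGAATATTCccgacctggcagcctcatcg
HSPA1B, chr6:31827613-31827660, plus strand: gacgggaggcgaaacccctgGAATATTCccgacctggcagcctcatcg
HSPA8, chr11:123062159-123062386, minus strand: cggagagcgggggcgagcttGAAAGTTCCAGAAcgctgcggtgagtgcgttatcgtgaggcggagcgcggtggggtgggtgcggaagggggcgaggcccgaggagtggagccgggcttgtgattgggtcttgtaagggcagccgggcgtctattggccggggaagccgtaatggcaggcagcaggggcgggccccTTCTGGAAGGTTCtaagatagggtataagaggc

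The near-identical HSPA1A and HSPA1B stretches belong to genes whose transcripts are also nearly alike. Of all 50-base words in the longest coding HSPA1A transcript, 72.6% also occur in HSPA1B. The share of words found on either strand in transcripts of other genes was 24.98% for HSPD1, 21.4% for HSP90AA1, 18.8% for HSP90AB1, 15.4% for HSPA8, 11.4% for HSPB1, 2.57% for DNAJB1 and 0 for HSPH1. For HSPE1 the share was 52.9%, with HSPD1 as the partner that shares most (25.8%). HSPD1 and HSPE1 are transcribed in opposite directions from a shared region, and the share was not split by strand. It therefore does not show that their coding sequences are alike. The next partner of HSPE1 was HSPE1-MOB4, which stands in the same row. How the authors' counting assigned such reads is not given in the sources used here.

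All 9 rows were well above the level at which genes were tested, which was a mean of 1 FPKM over the libraries. Together they made up 1.61%, 1.47% and 1.74% of the FPKM sum in the overexpression libraries, against 1.25%, 1.21% and 1.499% in the vector libraries. Overexpression replicate 2 fell below vector replicate 3 in this share, so the groups overlapped. FPKM is a level per length and can be set side by side between genes. In the overexpression libraries the order by mean FPKM was HSP90AB1, HSP90AA1, HSPA8, HSPD1, DNAJB1, HSPB1 and HSPH1, and the ranges over replicates of neighbours in that order did not overlap down to the HSPE1 row, whose range overlapped that of the HSPA1A and HSPA1B row. The order of the first 7 was the same in the vector libraries, but there the ranges of HSP90AA1 and HSPA8, of HSPB1 and HSPH1, and of both joined rows overlapped.

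**Figure D1:**
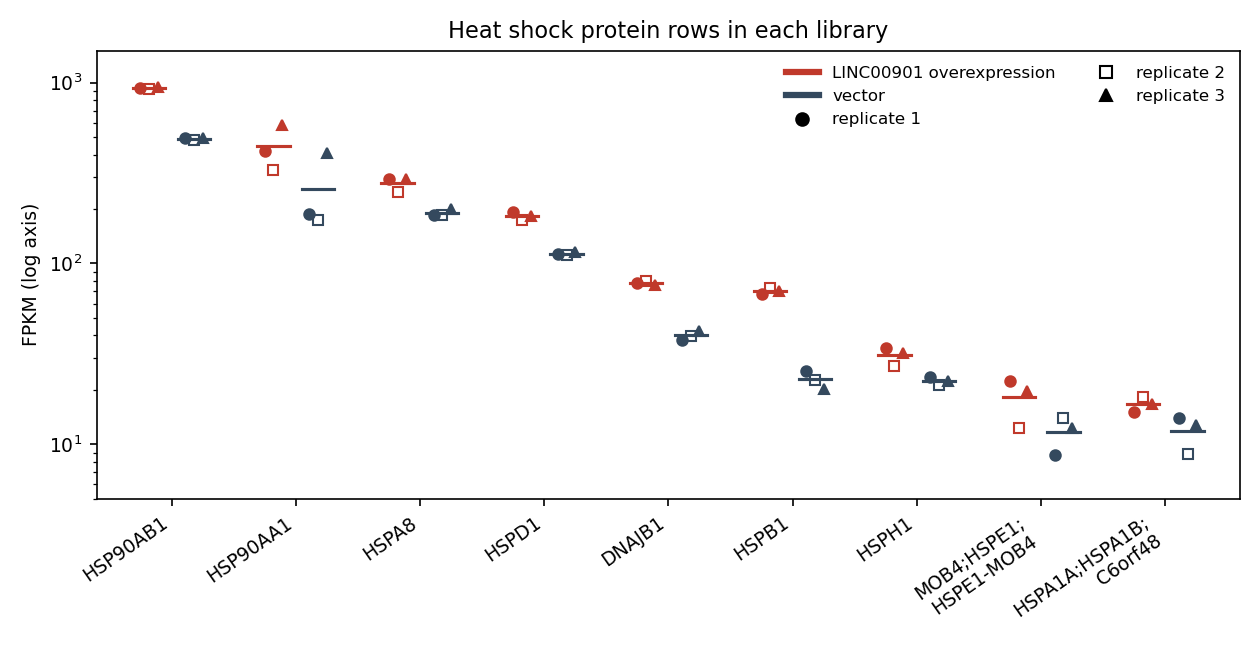
FPKM on a log axis for the 9 rows, ordered by their mean in the overexpression libraries. Each symbol is 1 library, with a shape for each replicate number, and each bar is the mean of 3 libraries. HSP90AB1 stands highest in both groups, and HSP90AA1 is the row whose 2 groups are most spread, with replicate 3 highest in each.

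The comparison asked which of these genes differ between cells overexpressing LINC00901 and vector cells. HSPB1 had the largest difference, with 70.8 ± 2.76 FPKM in overexpression libraries against 22.9 ± 2.60 in vector libraries (SD, n = 3), and it was higher under every scaling tried. DNAJB1 was also higher under every scaling. HSP90AB1, HSPD1, HSPA8 and HSPH1 were higher on the deposited values, but the sign turned with cyclic loess for all 4, with quantile normalization for HSPD1, HSPA8 and HSPH1, and with equal FPKM sums for HSPH1. In limma, fitted on log2(FPKM + 0.5) over all 9694 rows with a mean of at least 1 FPKM, 6 of the 9 rows passed an adjusted p of 0.05 (Benjamini-Hochberg over all tested rows) and all 6 were higher. Among all tested rows 49.2% were called, 37.4% as higher and 11.9% as lower. The change was above 0 in all 9 rows and in 67% of all tested rows. The groups did not overlap for 7 of the 9 rows, all of them higher, against 60.6% of all tested rows in either direction and 44.9% in the higher one. The median tested row was itself higher by 0.27 log2 (1.20-fold), and changes followed the level. When the rows were cut into 10 level groups by mean log2 FPKM, the top group of 970 rows, which holds 7 of the 9 heat shock protein rows, had 71.8% called higher. All 6 rows called higher were among these 7, a comparison with the 71.8% that rests on few rows and was not tested. Both joined rows lie in the next level group, where 51.7% of rows were called higher, and neither passed.

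Of the cytosolic HSP90 pair, HSP90AB1 is the form made at all times. It had 939, 922 and 943 FPKM in the overexpression libraries, against 493, 479 and 495 FPKM in the vector libraries. The groups did not overlap, the coefficients of variation were 1.22% and 1.76%, and the gene ranked between 4 and 5 of all rows in every library. Its log2 change was 0.94 ± 0.04 (SE), with a limma adjusted p of 3.77e-05. With quantile normalization the change was 0.04 (limma adjusted p = 0.579), and with cyclic loess normalization, which evens out differences that follow the level, it was -0.26 (limma adjusted p = 0.00344), a call in the other direction.

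HSP90AA1, the stress-inducible HSP90, was the most variable of the rows among replicates, with coefficients of variation of 29.4% in overexpression and 51.8% in vector libraries. It had 420, 328 and 586 FPKM in the overexpression libraries, against 187, 173 and 410 FPKM in the vector libraries. Replicate 3 was the highest library in each group, and vector replicate 3 lay above overexpression replicate 2. The log2 change of 0.87 ± 0.36 (SE) did not pass (limma adjusted p = 0.0835). Without vector replicate 3 it was 1.26 (adjusted p = 0.00837), and without replicate 3 of both groups, an alternative added after the values were seen, it was 1.04 (adjusted p = 0.00913). Leaving out any other single library gave changes between 0.64, without vector replicate 2 (adjusted p = 0.223), and 1.06, without overexpression replicate 2 (adjusted p = 0.0763), none of which passed. Of the 970 rows in the top level group, HSP90AA1 was the only one with replicate 3 above both other replicates by more than 0.3 log2 in each group. Over all 9694 tested rows the counts were 40, 42 and 38 for replicates 1, 2 and 3.

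Among the HSP70 proteins, HSPA8 is the constitutive cytosolic form. It had 293, 249.3 and 294 FPKM in overexpression libraries, against 186, 185 and 199 FPKM in vector libraries, and the groups did not overlap. The log2 change was 0.55 ± 0.08 (SE; limma adjusted p = 0.00173). This change was smaller than the median of 0.62 log2 in the top level group. It was 0.34 with each library centred on its median (limma adjusted p = 0.0103), 0.17 with the length and GC correction (limma adjusted p = 0.106) and 0.00015 with equal FPKM sums (limma adjusted p = 0.999). With quantile normalization it was -0.38 and with cyclic loess -0.44, both past the threshold as lower (limma adjusted p = 0.00731 and 0.00474).

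The joined row of HSPA1A and HSPA1B, the classic heat-inducible HSP70 genes, lay close to the threshold. It had 15.2, 18.3 and 16.7 FPKM in the overexpression libraries, against 14.1, 8.83 and 12.7 FPKM in the vector libraries. The groups did not overlap. The log2 change was 0.50 ± 0.18 (SE), with a limma adjusted p of 0.0510. It passed under 3 of 18 alternatives, which were a pseudocount of 1 (adjusted p = 0.0493), rows with a mean of at least 5 FPKM (0.0483) and the fit without vector replicate 1 (0.0313). Over the 18 the adjusted p reached 0.907, with equal FPKM sums, where the change was -0.0283. It was 0.213 with median centring and 0.139 without overexpression replicate 2. How much of the row comes from C6orf48 cannot be told apart.

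HSPH1, the cytosolic HSP110 that exchanges nucleotide on HSP70, had 34.1, 27.1 and 32.1 FPKM in overexpression libraries, against 23.6, 21.4 and 22.3 FPKM in vector libraries. Every overexpression library lay above every vector library. The log2 change of 0.46 ± 0.10 (SE) passed on the deposited values (limma adjusted p = 0.0108). It did not pass after median centring (0.25, limma adjusted p = 0.0835), and the sign turned with quantile normalization (-0.0628), equal FPKM sums (-0.0803) and cyclic loess (-0.0881), none of which passed. Without replicate 3 of both groups the adjusted p was 0.0881.

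DNAJB1, the inducible J-domain partner of cytosolic HSP70, had 78.2, 79.5 and 76.1 FPKM in the overexpression libraries. The vector libraries had 37.8, 40.0 and 42.5 FPKM, so the groups were clearly apart and each was tight. The log2 change was 0.95 ± 0.07 (SE; limma adjusted p = 0.000179). Over all 19 alternatives the change lay between 0.25 and 1.01, and each passed the threshold as higher, with adjusted p-values up to 0.0249.

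HSPB1, also called HSP27, is a small heat shock protein that holds unfolding proteins without using ATP and that binds actin. Its values were 68.1, 73.6 and 70.8 FPKM in overexpression libraries, against 25.5, 22.8 and 20.4 FPKM in vector libraries, with a wide gap between the groups. The log2 change was 1.61 ± 0.10 (SE; limma adjusted p = 0.000109), larger than that of 98.1% of tested rows. It ranged from 0.83, with the length and GC correction, to 1.69, without vector replicate 1, and passed as higher under all 19 alternatives.

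HSPD1, the mitochondrial HSP60 chaperonin, had 192, 175 and 184 FPKM in overexpression libraries, against 113, 111 and 116 FPKM in vector libraries, with no overlap. The log2 change was 0.69 ± 0.06 (SE; limma adjusted p = 0.000260). With equal FPKM sums it was 0.14 (limma adjusted p = 0.0742), and it passed as lower with quantile normalization (-0.22, adjusted p = 0.0185) and with cyclic loess (-0.20, adjusted p = 0.0258). The row that holds HSPE1, the HSP10 lid of the same chamber, had 22.4, 12.4 and 19.7 FPKM in overexpression libraries, against 8.78, 14.0 and 12.3 FPKM in vector libraries. Overexpression replicate 2 lay below vector replicate 2, and the log2 change of 0.60 ± 0.25 (SE) did not pass (limma adjusted p = 0.0892). It passed under 1 of 18 alternatives, without overexpression replicate 2 (0.84, adjusted p = 0.0226), and was 0.43 without overexpression replicate 1 (adjusted p = 0.235) and 0.41 without vector replicate 1 (adjusted p = 0.229). The MOB4 kinase regulator shares this row, and its part in the value cannot be told apart.

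**Figure D2:**
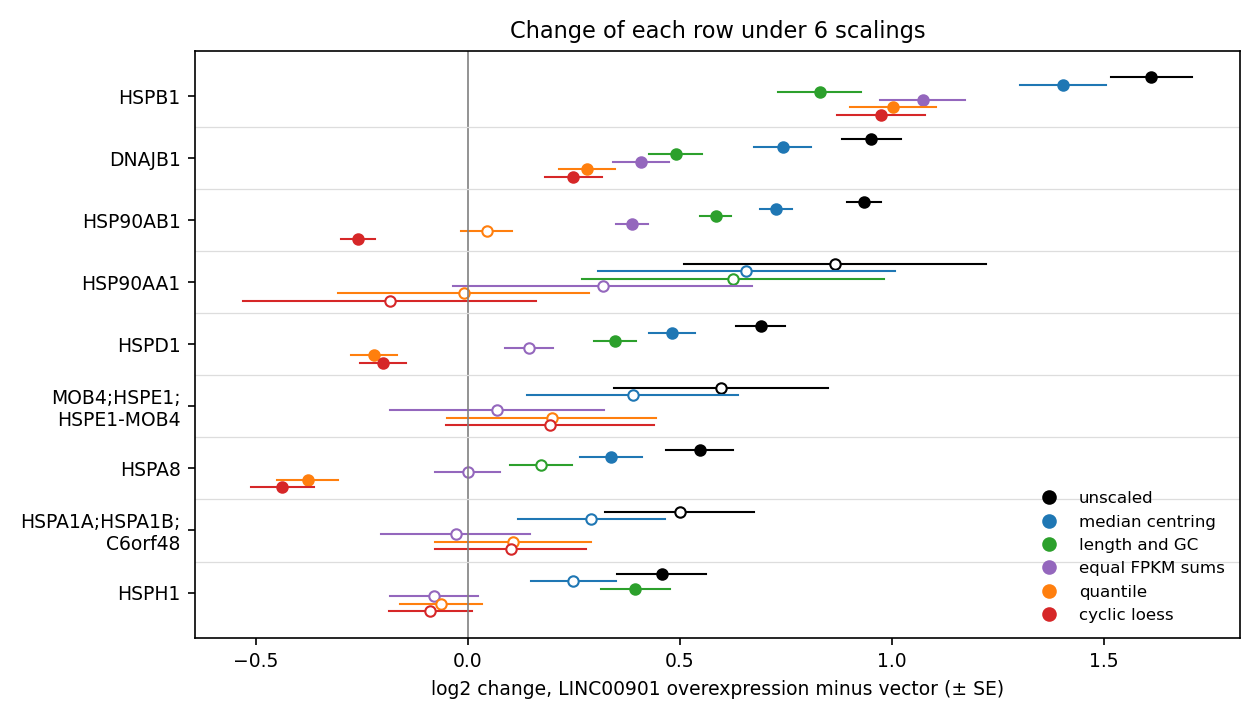
Log2 change of each row, LINC00901 overexpression minus vector, with its standard error, under 6 scalings of the libraries. Filled points pass an adjusted p of 0.05 in limma and open points do not. HSPB1 and DNAJB1 are filled and right of 0 under all 6, while HSP90AB1, HSPD1 and HSPA8 are filled on the right unscaled and filled on the left with cyclic loess.

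Across the level groups the median log2 change was between 0.06 in the bottom group and 0.62 in the top group, where the quartiles were 0.29 and 0.95. Of the 7 heat shock protein rows in the top group, HSPB1 lay above the upper quartile. DNAJB1 and HSP90AB1 lay near it and HSP90AA1 and HSPD1 between the median and it, while HSPA8 and HSPH1 lay below the median. With cyclic loess 2 of the 9 rows were called higher and 3 lower, against 20% and 21% of all tested rows and 41% in either direction. With quantile normalization the counts were 2 higher and 2 lower, against 19.2% and 20.9% of all tested rows and 40.1% in either direction. Centred on the library medians, 5 of the 9 passed as higher and 0 as lower (24%, 19.2% and 43.3% of all tested rows in the higher, lower and either direction). Corrected for length and GC content, 5 of the 7 rows with a known length passed as higher and 0 as lower (19.3%, 19.2% and 38.5%). With equal FPKM sums 3 of the 9 were higher and 0 lower (11.9%, 34.5% and 46.4%). Which of these scalings is closest to RNA per cell was not tested, and in bulk RNA fewer cells with a transcript and less of it per cell cannot be told apart.

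**Figure D3:**
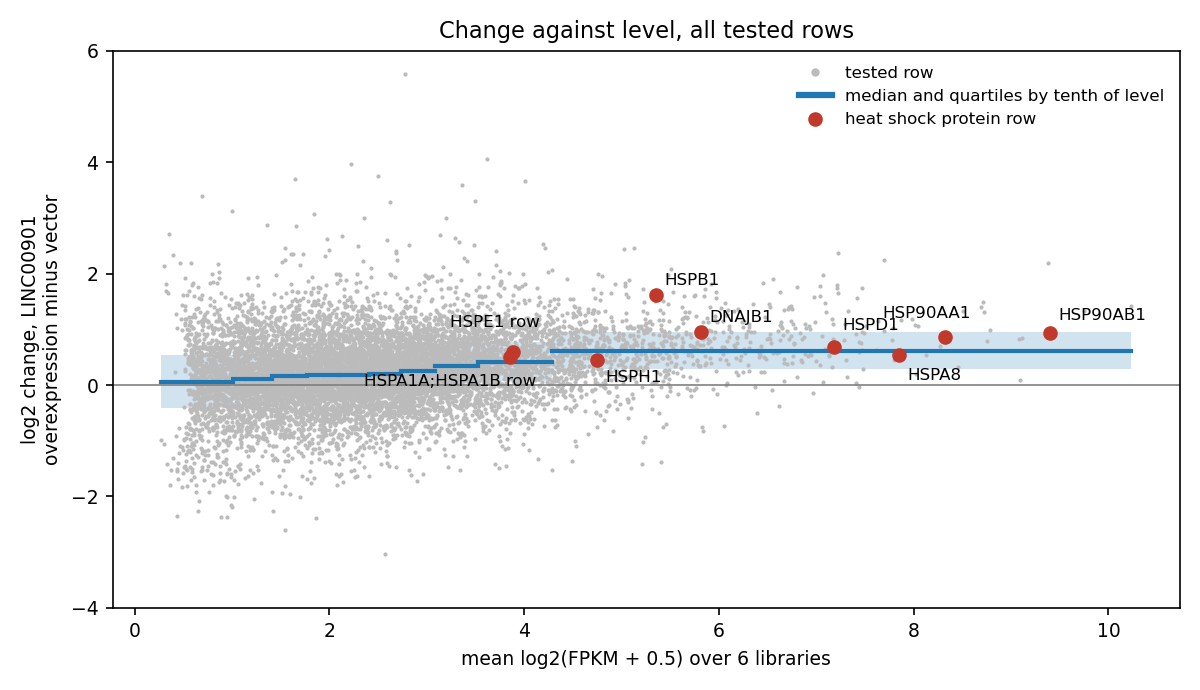
Log2 change against mean log2 level over the 6 libraries for the 9694 tested rows. Blue steps and bands give the median and quartiles of each of 10 level groups, with a median of 0.62 in the top group, and red points are the 9 heat shock protein rows, of which HSPB1 stands above the band.

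Ratios of 2 rows within a library do not change when a library is multiplied by a constant. For the 6 pairs compared, an exact two-sided permutation test over the 6 libraries cannot give a p below 0.1, and adjusted over the 6 pairs the smallest p obtained was 0.3. HSPB1 over HSPA8 was 0.232, 0.295 and 0.241 in overexpression libraries, against 0.137, 0.123 and 0.102 in vector libraries. That ratio was higher in all 3 overexpression libraries than in any vector library, by a mean of 1.09 log2 (exact permutation p = 0.1). DNAJB1 over HSPA8 was 0.266, 0.319 and 0.259 in overexpression libraries, against 0.203, 0.216 and 0.213 in vector libraries, a difference of 0.41 log2 with no overlap (exact permutation p = 0.1). For the other 4 pairs the groups overlapped. HSP90AA1 over HSP90AB1, the inducible over the constitutive form, was 0.447, 0.356 and 0.621 in overexpression libraries, against 0.380, 0.361 and 0.829 in vector libraries (exact permutation p = 0.8). HSPH1 over HSPA8 differed by -0.08 log2 (exact permutation p = 0.3), the HSPA1A and HSPA1B row over HSPA8 by -0.03 (exact permutation p = 0.9) and HSPD1 over the HSPE1 row by 0.07 (exact permutation p = 0.8).

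**Figure D4:**
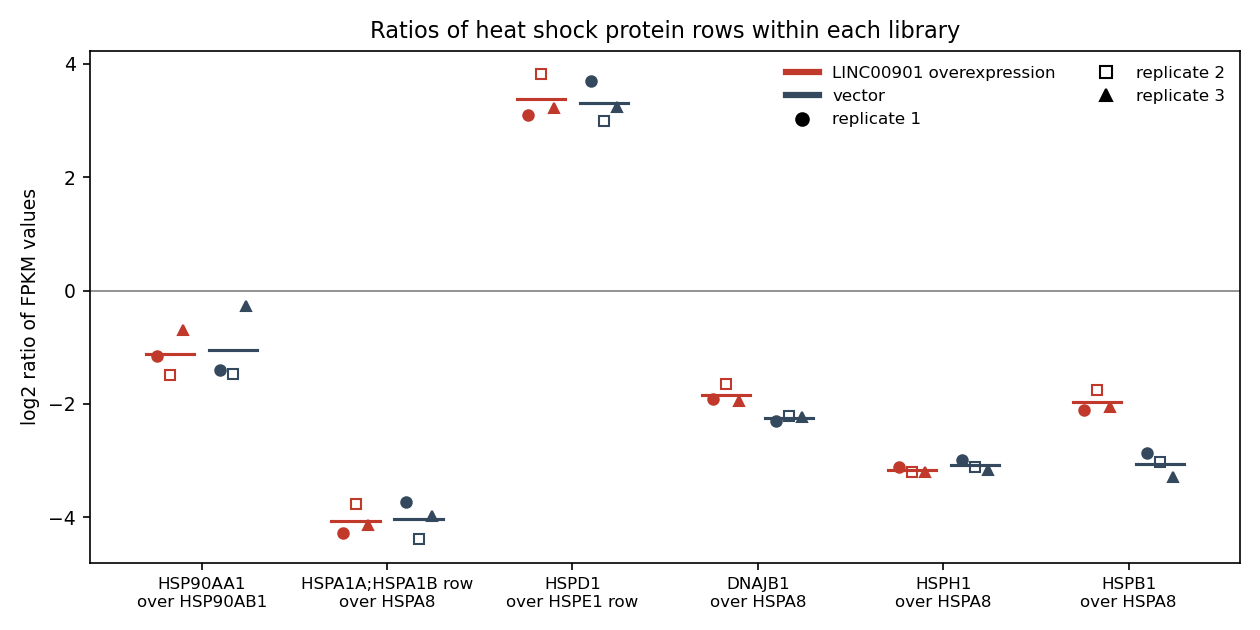
Log2 ratios of FPKM values within each library for 6 pairs of rows, with overexpression left of vector in each pair. Symbols are single libraries and bars are means of 3. DNAJB1 over HSPA8 and HSPB1 over HSPA8 are the pairs whose groups do not overlap.

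Chaperones outside the 10 genes were described by lists, some of which share genes, and their counts are to be read against the 37.4% of all tested rows called higher and the 11.9% called lower. The median log2 change of the 9 heat shock protein rows was 0.69, against 0.27 over all tested rows. Most of the 9 lie in the top level group, whose median was 0.62, and with cyclic loess the median of the 9 was -0.09. Of 14 tested subunits of the cytosolic chaperonin CCT and of prefoldin, which hands clients to it, 12 were higher and 1 lower, with a median of 0.62. The tested CCT subunits lie in the top level group, where 71.8% of rows were called higher. With cyclic loess 4 of the 14 were higher and 6 lower. The 4 higher were all prefoldin subunits, which were also called higher on the deposited values. The 6 lower were CCT subunits and PFDN1, a prefoldin subunit that was lower on the deposited values too. For most CCT subunits the direction thus depended on the scaling, while the 4 prefoldin subunits kept theirs with cyclic loess. PFDN1 was named after its values were seen. PFDN2 was at 29.9 ± 3.07 FPKM against 5.88 ± 3.95 (SD, n = 3; limma adjusted p = 0.00230) and PFDN6 at 5.67 ± 0.255 against 2.40 ± 0.393 FPKM (SD, n = 3; limma adjusted p = 0.000820), in overexpression against vector libraries, and both were called higher under all 5 scalings. So was PFDN5, with a log2 change of 1.04. VBP1, another prefoldin subunit, had a log2 change of 1.29 that passed under 1 of the 5 scalings, and leaving out single libraries moved its adjusted p as far as 0.0639.

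Of 19 HSP90 co-chaperones, 8 were higher and 0 lower, a share of higher calls near the 37.4% of all tested rows. Centred on the medians, 7 passed as higher and 2 as lower, and by cyclic loess 4 and 2. With equal FPKM sums the counts were 2 and 4. AHSA1, which stimulates the ATPase of HSP90, was at 26.0 ± 2.83 FPKM in overexpression libraries against 11.2 ± 1.39 in vector libraries (SD, n = 3; limma adjusted p = 0.000552), and ST13, also called HIP, which binds HSP70, was at 60.1 ± 1.62 against 30.7 ± 1.93 FPKM (SD, n = 3; limma adjusted p = 0.000187). Both were called higher under all 5 scalings. UNC45A, a myosin chaperone that binds HSP90, had a log2 change of 0.92, called under 4 of the 5.

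HSP70 partners were mixed. Of 6 tested other HSP70 and HSP110 genes, 2 were higher and 0 lower. These were HSPA4, an HSP110 protein, with a log2 change of 0.71, and HSPA9, the HSP70 of mitochondria, with 0.71, and neither passed as higher with cyclic loess, where 0 of the 6 were higher and 1 lower. Of 26 tested J-domain genes, 5 were higher and 3 lower, a smaller share of higher calls than the 37.4% of all tested rows. Median centring gave 3 higher and 6 lower, and equal FPKM sums 1 and 10. DNAJC8, a J-domain protein of the spliceosome, had 34.8 ± 3.54 FPKM in overexpression libraries against 3.21 ± 1.09 in vector libraries (SD, n = 3; limma adjusted p = 0.000152), DNAJA2, which works with HSPA8, had a log2 change of 0.89, and mitochondrial DNAJC15 and DNAJA3 had 0.69 and 0.66. The call of DNAJA3 was lost under all 5 scalings. Of 10 nucleotide exchange factors and BAG genes, 4 were higher and 0 lower. These were BAG4 (0.86), HSPBP1 (0.85), SIL1 of the endoplasmic reticulum (0.65) and the row that joins BAG6 with C6orf47 (0.82), in log2 change. With equal FPKM sums 2 of the 10 were higher and 2 lower, and corrected for length and GC content 1 of the 9 with a value was higher. HSPBP1 and SIL1 were each called under 3 of the 5 scalings, with changes down to 0.13 and 0.04. Of the 9 genes listed as other small heat shock proteins, 8 lay below the filter, and HSPB8, HSPB7 and HSPB3 were listed at 0 in every library. HSPB11 was the 1 gene of that list above the filter.

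Of 17 genes listed as other mitochondrial chaperones and proteases, 9 were higher and 1 lower, with a median log2 change of 0.64. The list also holds HTRA1, which is a secreted protease, and OMA1, whose row is joined with DAB1. Neither row was called on the deposited values, and both were named after their values were seen. Among all tested rows 37.4% were higher and 11.9% lower. The 17 listed genes lie at several levels, and the share called higher rose from 22.4% in the bottom level group to 71.8% in the top one. Median centring gave 8 and 2, cyclic loess 5 and 2, and equal FPKM sums 3 and 4. TRAP1, the HSP90 of mitochondria, was at 17.9 ± 1.11 FPKM in overexpression libraries against 8.94 ± 1.55 in vector libraries (SD, n = 3; limma adjusted p = 0.00134), and CLPP, the matrix protease, at 8.28 ± 1.96 against 2.30 ± 0.966 FPKM (SD, n = 3; limma adjusted p = 0.00257). Both were called higher under all 5 scalings. The proteases HTRA2 and LONP1 had log2 changes of 1.02 and 0.97, each called under 3 of the 5.

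The heat shock factors themselves differed in direction after scaling. HSF1, the main stress-activated factor, had 7.35, 8.62 and 8.53 FPKM in overexpression libraries, against 5.04, 3.36 and 4.18 FPKM in vector libraries, with no overlap. Its log2 change of 0.90 passed (limma adjusted p = 0.00340) and stayed positive under all 5 scalings, past the threshold under 3. HSF2 had 8.17, 6.44 and 7.37 FPKM in overexpression libraries, against 8.70, 8.6 and 7.67 FPKM in vector libraries. Its log2 change of -0.18 did not pass (limma adjusted p = 0.243), but it passed as lower under all 5 scalings, where it lay between -0.69 and -0.39. HSBP1, a small inhibitor of HSF1, had a log2 change of 0.62, called under 2 of the 5 scalings and as low as 0.12 among them.

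Of 22 tested other genes known as HSF1 targets, 9 were higher and 0 lower, with a median log2 change of 0.36. The share of higher calls was near the 37.4% of all tested rows. Median centring gave 8 and 3, cyclic loess 6 and 4, and equal FPKM sums 5 and 6. The largest changes were those of HMOX1, heme oxygenase, at 10.2 ± 1.79 FPKM in overexpression libraries against 3.83 ± 0.226 in vector libraries (SD, n = 3; limma adjusted p = 0.000597), of CLU, the secreted chaperone clusterin (1.20 log2), of AHSA1 (1.18 log2) and of DEDD2 (1.02 log2). HSPA6, an HSP70 gene that is strictly heat-induced in human cells, stood at 0.17, 0.29 and 0.07 FPKM in overexpression libraries, against 0.02, 0.00 and 0.07 FPKM in vector libraries, and HSPB8 and CRYAB did not exceed 0.09 FPKM in any library. HSPA6, HSPB8 and CRYAB lay below the filter and were not tested. They and the other small heat shock proteins named, with BAG3, whose values of 9.94, 9.31 and 6.13 FPKM in overexpression libraries overlapped with 2.67, 8.4 and 6.74 FPKM in vector libraries (limma adjusted p = 0.254), were named after their values were seen.

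**Figure D5:**
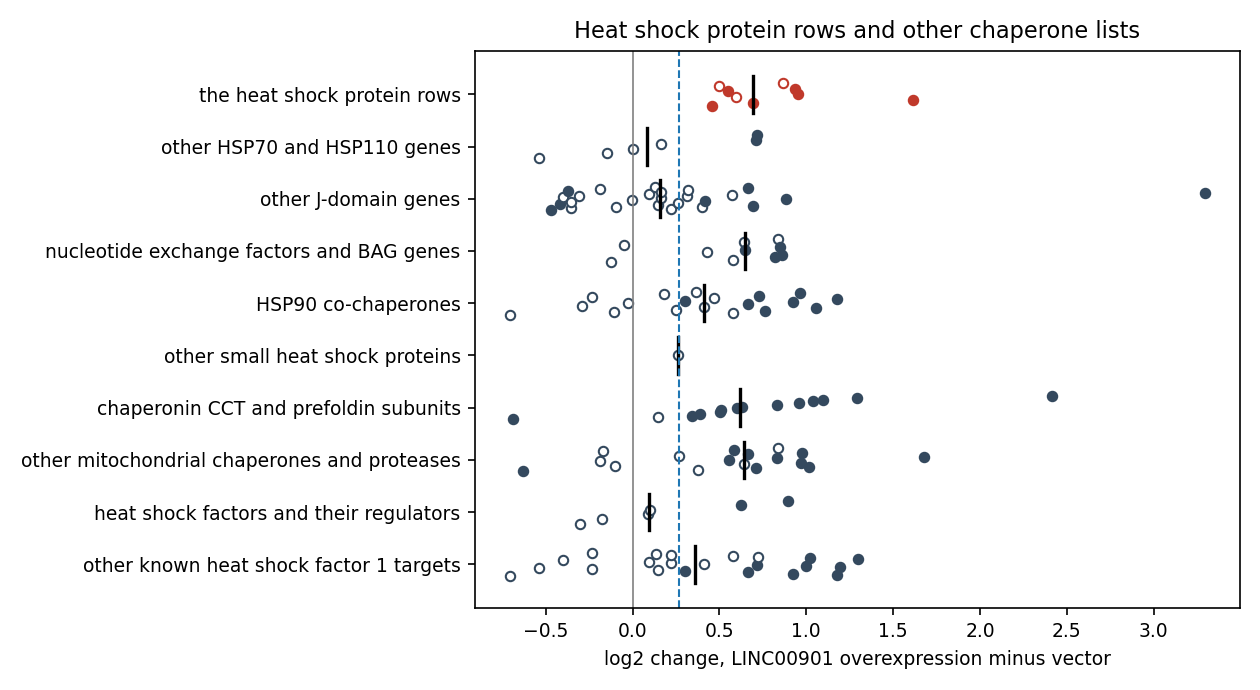
Log2 change, LINC00901 overexpression minus vector, of the 9 heat shock protein rows (red) and of the tested members of 9 other lists (dark), unscaled. Filled points pass an adjusted p of 0.05 in limma, short bars are medians, and the dashed line is the median of all tested rows at 0.27. The CCT and prefoldin list and the mitochondrial list have medians of 0.62 and 0.64, near the 0.69 of the heat shock protein rows.

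By closeness of pattern over the 6 libraries, measured as the distance between centred log2 values among 103 rows of these lists, HSPD1 was nearest to HSPA4 (distance 0.0761), which had 73.3, 70.2 and 69.3 FPKM in overexpression libraries against 42.9, 42.3 and 43.9 FPKM in vector libraries. HSP90AB1 and DNAJB1 were both nearest to the BAG6 row (0.155 and 0.184), HSPA8 to CCT3 (0.165), HSPH1 to CCT5 (0.182) and the HSPA1A and HSPA1B row to HSBP1 (0.274). The nearest rows were farther off for HSPB1 (HMOX1, 0.550), the HSPE1 row (DNAJA3, 0.618) and HSP90AA1 (UNC45A, 0.768).

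FPKM values summed to between 127768 and 128538 in overexpression libraries and between 87162 and 88738 in vector libraries, and the part of this difference in the results above was not tested beyond the scalings given. Of 5 epithelial markers, KRT18, KRT19 and a row joining KRT8 with KRT78 were expressed in every library, while EPCAM and CDH1 did not exceed 0.14 FPKM, and their summed level was between 100.2 and 128.5 FPKM in overexpression libraries against 121.7 to 136.2 in vector libraries. Within that sum KRT19 was higher, at 23.95 ± 1.07 FPKM in overexpression libraries against 3.71 ± 1.95 in vector libraries (SD, n = 3; log2 change 2.64, limma adjusted p = 0.000654), while KRT18 (-0.51, adjusted p = 0.0219) and the KRT8 row (-0.62, adjusted p = 0.00961) were lower, and all 3 kept these directions and calls with cyclic loess. Of the 2 mesenchymal markers, VIM was at 543 to 634 FPKM in overexpression libraries against 198 to 250 in vector libraries. Its log2 change was 1.34 (limma adjusted p = 0.000195), but with cyclic loess it was 0.26 and did not pass (limma adjusted p = 0.0686). The other, CDH2, lay below the filter, at 0.227 ± 0.163 FPKM in overexpression libraries against 0.457 ± 0.111 in vector libraries (SD, n = 3). The leukocyte markers PTPRC and CD3E and the acinar markers PRSS1, CPA1 and AMY2A were at 0 in every library. The other acinar marker, CELA3A, stands in a row joined with CDC42 and CELA3B, at 17.3 ± 1.14 FPKM in overexpression libraries against 11.01 ± 0.230 in vector libraries (SD, n = 3; limma adjusted p = 0.00136), which belongs to no single gene. The endothelial markers PECAM1 and VWF and the fibroblast marker DCN did not exceed 0.05 FPKM, whereas CD14 reached 1.37 FPKM. The 3 fibroblast markers summed to between 11.9 and 17.8 FPKM in overexpression libraries against 18.1 to 19.4 in vector libraries, most of it COL1A2. COL1A2 was lower (log2 change -0.47, limma adjusted p = 0.0339) and COL1A1 higher, at 1.67 ± 0.280 FPKM in overexpression libraries against 0.583 ± 0.297 in vector libraries (SD, n = 3; log2 change 1.03, limma adjusted p = 0.00913). The part of these markers in the results was not tested.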

How the data were processed

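The authors deposited 1 table of FPKM values for the 6 libraries. For upstream steps, the submitters' processing notes name cutadapt, FastQC, HISAT2 and hg19, without versions. The annotation and the program behind the FPKM values are unknown here, and so is the depth; no count model was used. Of the table's rows, 990 join several gene names, and a value of 0 may be a failed estimate.

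The test was limma 3.58.1 (R 4.3.3) on log2(FPKM + 0.5) with an intensity trend, over 9694 rows with a mean of at least 1 FPKM, with Benjamini-Hochberg adjustment and a threshold of 0.05. It was tested on simulated data first. Alternatives changed the pseudocount (1, 0.1), the filter (none, 5), the threshold (0.01), the variance estimate, the replicate block, the libraries used and the scaling: median centring, quantile, equal FPKM sums, cyclic loess, or length and GC content from GENCODE 29, known for 91.1% of rows. Members, lists and pairs were chosen with earlier results of these data known. Named genes were the 10 members, HSF1, HSF2, the nearest list row of each member and, from each list with at least 2 genes past the threshold, up to 4 by absolute change; 1 gene that this rule names is not reported here, and other names are marked in the text. A planned comparison of protein sequences was not made. Python 3.11.15, pandas 2.3.3, numpy 2.4.6 and matplotlib 3.10.9 were used.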

Additional observations from a re-analysis of the deposited data

How the results depend on the processing

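The 6 member rows higher became 2 with quantile normalization, 2 with cyclic loess and 3 with equal FPKM sums, and the 0 lower became 2 with quantile normalization and 3 with cyclic loess; leaving out libraries gave 6 to 7 higher. Among all tested rows, 3621 higher and 1152 lower became 2396 and 422 with a mean of at least 5 FPKM, where fewer rows are tested, 2331 and 1866 with median centring, 1865 and 2024 with quantile normalization, 1155 and 3345 with equal FPKM sums, 1942 and 2034 with cyclic loess, 1701 and 1696 corrected for length and GC content, and 2287 and 594 at an adjusted p of 0.01. Leaving out libraries gave 2392 to 3371 higher and 577 to 1004 lower. Reversed log2 changes were those of HSP90AA1 (-0.0096 and -0.18 with quantile normalization and cyclic loess), HSPA8 (-0.38 and -0.44), HSPD1 (-0.22 and -0.20), HSPH1 (-0.0628 and -0.0881, and -0.0803 with equal FPKM sums), HSP90AB1 (-0.26 with cyclic loess) and the HSPA1A and HSPA1B row (-0.0283 with equal FPKM sums). Apart from what these scalings do by construction, the cause was not tested. Without single libraries the ratio difference lay between -0.28 and 0.32 log2 for HSP90AA1 over HSP90AB1, between -0.209 and 0.121 for the HSPA1A and HSPA1B row over HSPA8, and between -0.144 and 0.266 for HSPD1 over the HSPE1 row.

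The labels do not say whether same-numbered libraries were made together. Over all tested rows their deviations from the group means had correlations of -0.04, -0.01 and -0.01, which cannot settle this. With the replicate block 7 member rows were higher, HSP90AA1 among them (adjusted p = 0.00747), and 3262 rows were higher and 965 lower in all. Of the 169 member values under the alternatives, 145 kept direction and side of the threshold. With the direction kept, 6 lost a call and 7 gained a call. The other 11 reversed, and some of these, such as HSPH1 with quantile normalization, also lost the call. The number of libraries and the unknown depth limit the precision.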
